A study of Homo sapiens with 8 samples.

Results

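The transcripts described here are those of 44 lysosome and V-ATPase genes, chosen from a list of lysosomal enzymes, membrane proteins, V-ATPase subunits and the transcription factors that control them. All 44 had a row among the 28395 genes of the table, and 43 passed the filter on low values (at least 10 normalized counts, which are reads divided by a factor for each library, in 2 or more libraries). NEU1, the lysosomal sialidase, did not pass and was not tested. The cells were A-498, an established line from a human kidney cancer, and the series asked how knockout of ANXA4, a calcium-dependent membrane-binding annexin, altered their transcripts. There were 2 control lines (2 libraries each), which carried non-targeting sgRNA-1 or non-targeting sgRNA-2 and were labelled wild type. The other lines (2 libraries each) carried ANXA4 sgRNA-1 or ANXA4 sgRNA-2 and were labelled ANXA4 knockout; they are called the lines labelled KO guide 1 and KO guide 2. Cells of all 4 lines were seeded at equal numbers and collected after 24 hours, before confluence, and polyA RNA was sequenced. There was 1 line per guide, so guide and line cannot be told apart, and the labels do not say whether a line is a clone or a pool. They also do not say whether the replicates came from separate cultures, so p-values measure the spread between these libraries, which may be technical.

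Lysosomes are acidic compartments in which cathepsins, glycosidases, sulfatases and lipases break down proteins, sugar chains and lipids. The V-ATPase pumps protons into them: its V1 sector hydrolyses ATP on the cytosolic side, and its V0 sector carries protons through the membrane. TFEB, TFE3 and MITF are related transcription factors that move to the nucleus when mTORC1 signalling at the lysosome is low, and they bind short sequences with a CACGTG core in the promoters of many lysosomal genes. Their activity is set mainly by phosphorylation, so their transcript levels are not a measure of it. GPNMB, a glycosylated membrane protein of lysosomes and melanosomes, is a known target of this factor family and was given as the marker of the gene group.

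Promoter sequences are shown for members whose windows held the longer forms of this motif, and for a V0 gene with 2 copies of the core, because the factors that bind it are members themselves. The windows ran from 250 bases before to 50 bases after the annotated start, from RefSeq (GRCh38.p14), and were found for 32 of the 44 members. The letters searched were CACGTG, TCACGTGA and GTCACGTGAC; each longer form contains the shorter, and all 3 read the same on both strands. Capitals mark the longest of these forms found at each place, and sequences run 5′ to 3′ on the strand of the gene.
LAMP1 upstream stretch: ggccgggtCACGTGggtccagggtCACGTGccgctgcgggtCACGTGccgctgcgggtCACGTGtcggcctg
GAA distal: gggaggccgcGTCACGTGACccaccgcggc
GAA proximal: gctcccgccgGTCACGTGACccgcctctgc
MCOLN1: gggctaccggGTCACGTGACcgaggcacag
ATP6V1G1: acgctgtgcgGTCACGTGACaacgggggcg
CTSA: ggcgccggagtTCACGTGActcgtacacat
ATP6V0D1: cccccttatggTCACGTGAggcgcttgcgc
ATP6V0B distal: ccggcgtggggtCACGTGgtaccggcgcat
ATP6V0B proximal: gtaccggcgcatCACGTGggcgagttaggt

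The LAMP1 stretch of 72 bases (chr13:113297039-113297110, plus strand) held 4 of the 6 cores found in that promoter window, with starts 16, 17 and 17 bases apart, and began 200 bases before the annotated start. The LAMP1 cores not shown lay within TCACGTGA, beginning 29 and 2 bases before that start. The GAA motifs lay at chr17:80101493-80101522 and chr17:80101538-80101567, and the MCOLN1 motif shown at chr19:7522598-7522627 (plus strand in both genes). MCOLN1 also held TCACGTGA within chr19:7522571-7522600, and CTSA a further CACGTG within chr20:45891281-45891310, neither of them shown. The other windows shown were chr9:114587699-114587728 for ATP6V1G1, chr20:45891298-45891327 for CTSA and chr16:67481199-67481228 for ATP6V0D1, the last on the minus strand. Those of ATP6V0B were chr1:43974891-43974920 and chr1:43974909-43974938. CACGTG was present in 9 of the 32 member windows (28.1%) and in 8.77% of the windows of 27305 genes. TCACGTGA was present in 6 (18.8%, against 1.18%), namely LAMP1, GAA, MCOLN1, ATP6V1G1, CTSA and ATP6V0D1. GTCACGTGAC was present in 3 (9.38%, against 0.421%), namely GAA, MCOLN1 and ATP6V1G1. The remaining windows with the core alone were those of ATP6V0B, CTSD and NEU1. A match describes the letters of the window and is no evidence of binding.

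The libraries held 15784890 to 22631588 reads. The replicate 1 library of each line was the deeper of its pair (16904423 to 22631588 reads, against 15784890 to 17610801 for replicate 2). Mitochondrial genes held 4.67% to 6.43% of reads in replicate 1 and 6.23% to 13.8% in replicate 2. ANXA4 had 2821 to 6773 normalized counts in the control libraries, 236 and 234 in the line labelled KO guide 1, and 3433 and 4142 in the line labelled KO guide 2. The transcript was thus within the control range in the latter line. A transcript level does not show whether the protein was lost, so the label of that line could not be checked. Every direction for KO below refers to the labels. The kidney lineage factors PAX8 and PAX2 (2987 to 4476 and 232 to 412 normalized counts) and the cytoskeletal genes VIM, KRT8 and KRT18 were present in every library, whereas LRP2, a proximal tubule receptor, had at most 1.13 and CA9, a hypoxia-induced carbonic anhydrase often high in clear cell kidney cancer, at most 24.8. In bulk RNA, fewer cells of a type and less RNA per cell cannot be told apart.

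Levels across members were compared per kilobase of annotated exon. CTSD, an aspartic protease, had the highest level, 6537 ± 1189 normalized counts per kb (mean and SD over 8 libraries). PSAP, the precursor of the saposins that help glycosidases reach their lipids, had 3745 ± 1159, and ATP6V0C, the main proton-carrying V0 subunit, 3615 ± 619. The lowest levels of tested members were those of GPNMB (32.3 ± 32.3 per kb) and TFEB (23.4 ± 7.14 per kb). Counts of 9 members are uncertain because more than 10% of their exon bases are shared with another annotated gene and strand use in the counting was not given. The shared part was largest for CD68 (85.8%), ATP6V0C (72.1%) and CTSD (52.7%). The others were CTSA, ATP6V1F, TPP1, HEXA, NAGLU and GLB1. For 4 of the 9 (CTSD, ATP6V1F, CTSA and HEXA), more than 10% of exon bases lay opposite a gene on the other strand. Named pseudogenes, which could take or give reads, exist for 6 members (GUSB, CTSL, ATP6V1G1, ATP6V0C, ATP6V0E1 and ATP6V1E1).

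NEU1 (chr6:31857659-31862821) was listed at 0 in 5 libraries and at 0.919, 1.57 and 1.03 normalized counts in 3 others, which was at most 2 reads. Of the 90 protein-coding genes within 1 Mb of it, 76 (84.4%) were below 10 in every library, against 32.4% of all protein-coding genes. Other genes were looked up by name, without regard to that distance. Of these RPS18, a ribosomal protein gene that every cell uses, reached 14.7 at most, and TUBB, a tubulin gene, 25.9. No statement about NEU1 expression was drawn from these values.

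**Figure D1:**
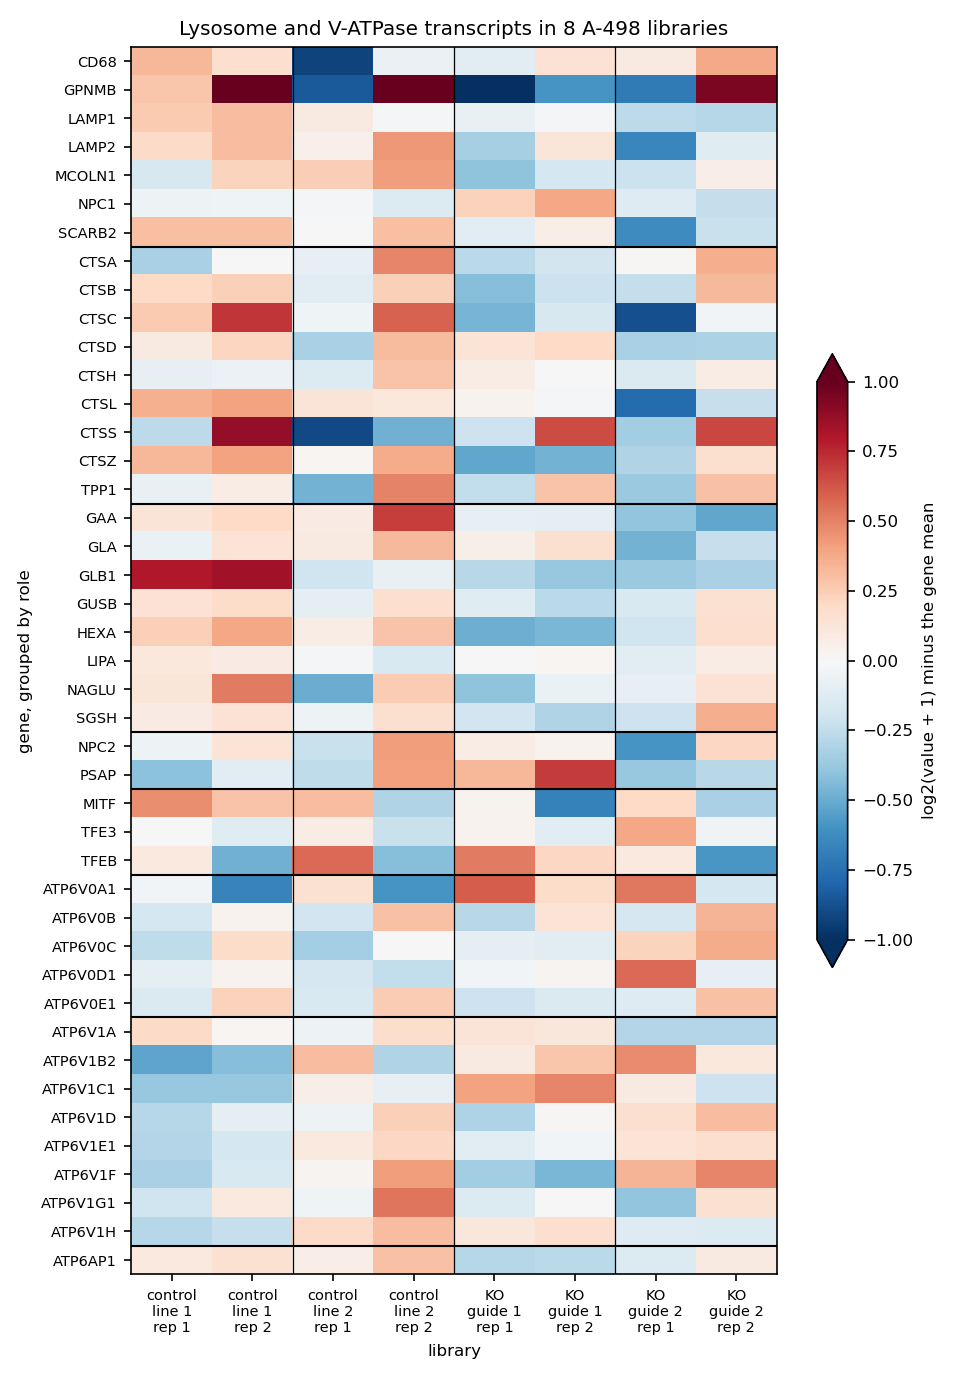
Each row is a tested member, grouped by role, and each column a library; colour gives log2(normalized count + 1) minus the mean of that gene over the 8 libraries, clipped at 1 in either direction. GPNMB had the widest range, from 14.1 to 589 normalized counts, and GLB1 was high only in the libraries of control line 1 (1447 and 1484).

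The comparison of KO with control asked whether the members differed between the arms as labelled. None of the 43 tested members was called by limma (adjusted p under 0.05 over all 14040 genes tested), where 0.235% of all genes were called. At an unadjusted p under 0.05 there were 9 members, beside 11.5% of all genes, and the smallest adjusted p among members was 0.296 (CTSZ). Log2 differences of KO minus control were negative for 26 members and positive for 17, with a median of -0.14, beside 0.00 over all genes. With 1 library left out this median lay between -0.215 and -0.0251; it was nearest to 0 without replicate 1 of KO guide 2 (-0.0251), replicate 2 of control line 2 (-0.0498) or replicate 2 of control line 1 (-0.0766), and farthest without replicate 1 of control line 2. The 7 membrane proteins had a median of -0.37 and the 19 enzymes and soluble proteins one of -0.20, whereas the 14 V-ATPase genes had one of 0.05. Limma with the replicate number as a block also called no member (0.264% of all genes called). The edgeR quasi-likelihood test on the whole reads recovered from the normalized counts called none either (1.32% of all genes called). It was fitted with no term for the line, so the 2 libraries of a line counted as independent. DESeq2, likewise fitted with no term for the line, called CTSC, CTSZ, GAA and GLB1 as lower (6.05% of all genes called). When each line was given its own mean, so that only the spread within lines counted as error, 7 members were called, LAMP1, CTSL, CTSZ, GAA, GLB1 and HEXA as lower and ATP6V1C1 as higher (10.5% of all genes called).

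GPNMB (Entrez gene 10457, chr7:23246775-23275108) had the largest difference of any member between the arms, but its libraries overlapped. It was at 144 and 367 normalized counts in control line 1, 66.2 and 589 in control line 2, 14.1 and 78.8 in the line labelled KO guide 1, and 72.4 and 229 in the line labelled KO guide 2. The second value, from replicate 2, was the higher of the pair in every line, and the lowest control library lay below 3 of the 4 KO libraries. The mean was 292 ± 236 in control and 98.7 ± 91.9 in KO (SD, n = 4 each), a log2 difference of -1.68 (SE 1.06, limma adjusted p 0.612). It was -0.99 without replicate 1 of KO guide 1 and -1.06 without replicate 2 of control line 2, and reached -2.34 without replicate 1 of control line 2.

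In 4 members (LAMP1, CTSL, GAA and GLB1) every KO library lay below every control library, as in 5.51% of all genes, and no member had the opposite order, found in 5.11% of all genes. LAMP1 (Entrez gene 3916, chr13:113297239-113323672), an abundant glycoprotein of the lysosomal membrane, was at 4065 and 4204 in control line 1, 3623 and 3354 in control line 2, 3236 and 3348 in the line labelled KO guide 1, and 2834 and 2786 in the line labelled KO guide 2. The arms of LAMP1 were separated by less than the gap between replicates of any line, since the highest KO and the lowest control library were 3348 and 3354. The means were 3811 ± 393 in control and 3051 ± 283 in KO (SD, n = 4 each), which differed by -0.32 on the log2 scale (SE 0.14, limma adjusted p 0.406).

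Lines were then compared singly, in a model with a mean per line. GLB1 (Entrez gene 2720, chr3:32961108-33097146), the lysosomal beta-galactosidase, was the only member called between the control lines, where 2.13% of all genes were called (1.05% higher and 1.08% lower in control line 2). Its values were 1447 and 1484 in control line 1, 724 and 787 in control line 2, 683 and 637 in the line labelled KO guide 1, and 642 and 662 in the line labelled KO guide 2. Control line 1 stood apart from the other 3 lines, and control line 2 lay just above both KO lines. The difference of control line 2 minus control line 1 was -0.96 on the log2 scale (SE 0.13, limma adjusted p 0.0104). Against the mean of the control lines, the differences were -0.67 for KO guide 1 (SE 0.11, limma adjusted p 0.0111) and -0.69 for KO guide 2 (SE 0.11, limma adjusted p 0.00655), both measured against a mean that control line 1 raised. Leaving out any 1 of the 4 control libraries ended the call between the control lines. With the replicate number as a block, 6 members differed between the control lines (12.5% of all genes, 5.68% higher and 6.79% lower). CD68 (-0.75), a membrane glycoprotein, and CTSS (limma adjusted p 0.00289), a protease of antigen processing, were lower in control line 2 beside GLB1, and the V1 subunits ATP6V1E1 (0.39), ATP6V1F (0.46) and ATP6V1H (0.51) higher.

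In the line labelled KO guide 1, 4 of 43 members were called against the control lines, where 7.01% of all genes were (3.82% higher and 3.18% lower). CTSZ and HEXA fell with GLB1, and ATP6V1C1, a V1 subunit of the stator that holds the catalytic head, rose. CTSZ (Entrez gene 1522, chr20:58995185-59007254), a carboxypeptidase of the cathepsin family, was at 7060 and 7424 in control line 1, 5690 and 7252 in control line 2, 3918 and 4035 in the line labelled KO guide 1, and 4543 and 6264 in the line labelled KO guide 2. Both libraries of KO guide 1 lay below all 6 others, and 1 library of KO guide 2 fell within the control range. The log2 difference from the control lines was -0.78 (SE 0.16, limma adjusted p 0.0246). HEXA, the alpha subunit of beta-hexosaminidase that degrades gangliosides, fell by 0.72 on the log2 scale (SE 0.14, limma adjusted p 0.02), to 789 and 806 from 1168 to 1447 in the controls.

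ATP6V1C1 (Entrez gene 528, chr8:103021083-103073051) was at 1409 and 1414 in control line 1, 1918 and 1738 in control line 2, 2433 and 2573 in the line labelled KO guide 1, and 1954 and 1593 in the line labelled KO guide 2. The 2 libraries of KO guide 1 were above all others, and those of KO guide 2 lay around control line 2. The rise in KO guide 1 was 0.64 (SE 0.12, limma adjusted p 0.0188). The calls were lost with single libraries, while the differences stayed at -0.87 to -0.69 for CTSZ, -0.77 to -0.67 for HEXA and 0.60 to 0.68 for ATP6V1C1. Without replicate 1 of control line 1 only GLB1 was called (2.83% of all genes). No member was called without replicate 2 of control line 1 (2.36% of all genes) or without either library of KO guide 1 (1.05%). There were 6 calls without replicate 1 of control line 2 (6.62%) and 5 without either library of KO guide 2 (9.28% and 9.34%). When the replicate number entered as a block, 15 members were called in this line, 4 higher and 11 lower, where 24.4% of all genes were called (13% higher and 11.4% lower). The added ones were NPC1, the cholesterol exporter (0.37), PSAP (0.61) and ATP6V0A1 (0.68) as higher, and GPNMB (-2.63), LAMP2 (-0.35), MCOLN1 (-0.47, the mucolipin calcium channel), CTSB (-0.46), CTSC (-0.70), MITF (-0.51), ATP6V1F (-0.39) and ATP6AP1 (-0.43) as lower.

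In the line labelled KO guide 2, 5 of 43 members were called, all lower, where 11.2% of all genes were called (4.54% higher and 6.67% lower). They were LAMP1 (-0.43), SCARB2, the receptor that carries glucocerebrosidase to lysosomes (-0.64), CTSL (-0.75), GAA, the acid alpha-glucosidase that degrades glycogen (-0.73), and GLB1, with limma adjusted p-values from 0.00655 to 0.029. CTSL (Entrez gene 1514, chr9:87726119-87731469), a cysteine endopeptidase, had the largest fall of these 5, with 7148 and 7366 normalized counts in control line 1, 6117 and 6001 in control line 2, 5727 and 5510 in the line labelled KO guide 1, and 3274 and 4749 in the line labelled KO guide 2. Its lines were ordered without overlap, and the 2 replicates of KO guide 2 were further apart than those of any other line. Without replicate 1 of KO guide 2 the CTSL difference was -0.48 and GLB1 alone remained called; GLB1 was also the only call without either library of control line 1. Without either library of KO guide 1, which enters this fit through the shared error, 3 were called (CTSL, GAA and GLB1). The share of all genes called in these fits was 5.79% to 8.08%. A block for the replicate number gave 15 called members, 4 higher and 11 lower (27.4% of all genes, 12.5% higher and 14.9% lower). LAMP2 (-0.63), CTSC (-0.83), CTSD (-0.39), CTSZ (-0.35), GLA (-0.47) and ATP6V1A (-0.38) were added as lower, and ATP6V0A1 (0.46), ATP6V0C (0.40), ATP6V1B2 (0.53) and ATP6V1F (0.42) as higher. Both KO lines were set against the same control libraries, so their differences are not independent.

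Between the 2 KO lines, ATP6V1F was the only member called, where 6.94% of all genes were (2.41% higher and 4.53% lower in KO guide 2). ATP6V1F (Entrez gene 9296, chr7:128862856-128865847), a small subunit of the V1 central stalk, was at 1179 and 1325 in control line 1, 1501 and 1974 in control line 2, 1160 and 1074 in the line labelled KO guide 1, and 1861 and 2071 in the line labelled KO guide 2. The line labelled KO guide 1 lay below all control libraries and KO guide 2 within or above the range of control line 2, and their log2 difference was 0.81 (SE 0.16, limma adjusted p 0.024). It was no longer called without either library of KO guide 1 or without replicate 2 of KO guide 2, when CTSL was called in its place. A second member was called without either library of control line 2 (PSAP) or without replicate 1 of KO guide 2 (ATP6V1C1). With the replicate number as a block, 16 members differed between the KO lines, 7 higher and 9 lower in KO guide 2 (24.5% of all genes, 10.5% higher and 14% lower), with GPNMB (1.91) and PSAP (-0.84) at the extremes. Over any difference among the 4 lines, 6 members were called (CTSL, CTSZ, GLB1, HEXA, ATP6V1C1 and ATP6V1F) beside 15.1% of all genes, and 30 were with the block, beside 43% of all genes. Only GLB1 was called among these without either library of control line 1 or of KO guide 1.

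**Figure D2:**
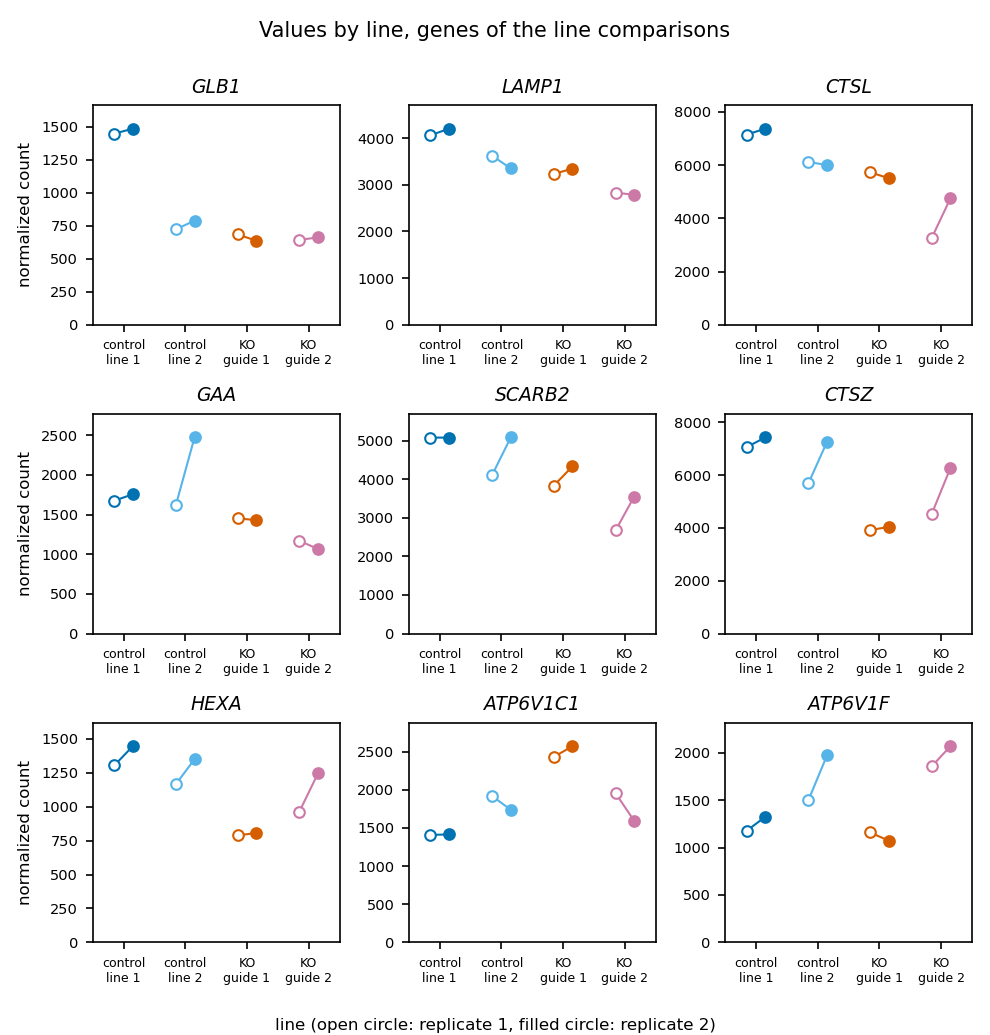
Normalized counts of the 9 members called in a comparison of lines, with 1 open circle (replicate 1) and 1 filled circle (replicate 2) per line and axes from 0. GLB1 was at 1447 and 1484 in control line 1 and at 637 to 787 in the other lines, CTSZ and HEXA were lowest in KO guide 1, and CTSL, GAA and SCARB2 were lowest in KO guide 2.

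The replicate number was shared across the 4 lines in the sample titles, and replicate 2 was compared with replicate 1 with the line as a block. Of the 43 tested members, 16 were called (37.2%), where 17.6% of all genes were. Those higher in replicate 2 numbered 13 (30.2%), beside 8.97% of all genes, and 3 were lower (6.98%), beside 8.62%. Differences were positive for 34 members and negative for 9, with a median of 0.19 beside 0.00 over all genes. All 19 tested enzymes and soluble proteins had positive differences, of which 8 were called, and all 3 transcription factors had negative ones, of which 2 were called. Replicate 2 was above replicate 1 in all 4 lines for 20 members (46.5%), beside 20.2% of all genes, and below it in all 4 for TFEB, TFE3, MITF and ATP6V0A1 (9.3%), beside 19.3% of all genes. With libraries scaled to equal totals the median was 0.11, against -0.07 over all genes, and 12 members were called (27.9%, beside 19.0% of all genes), without CTSA, CTSB, NPC2, PSAP and ATP6V0E1 and with TFE3. More genes but fewer members were thus called than with the deposited scaling. The edgeR quasi-likelihood test and DESeq2 on the recovered reads each called the same 16. Without the line in the fit no gene at all was called. Removal of either library of control line 2 left 4 members called (GPNMB, CTSC, CTSS and ATP6V0A1; 9.3%, beside 5.03% or 5.05% of all genes). Removal of either library of KO guide 2 left 10 (23.3%, beside 8.16% or 8.28% of all genes). The summed normalized counts of all 44 members were higher in replicate 2 of each line. The sums were 135549 against 122608 in control line 1 and 145090 against 110857 in control line 2. In KO guide 1 they were 127502 against 116948, and in KO guide 2 121227 against 104405. Normalized totals over all genes were higher in replicate 2 of each line too. These totals were 18315600 against 17302900 in control line 1 and 18699600 against 17691700 in control line 2. In KO guide 1 they were 17895800 against 17717300, and in KO guide 2 19054800 against 17482700. The member sums are to be read beside them.

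**Figure D3:**
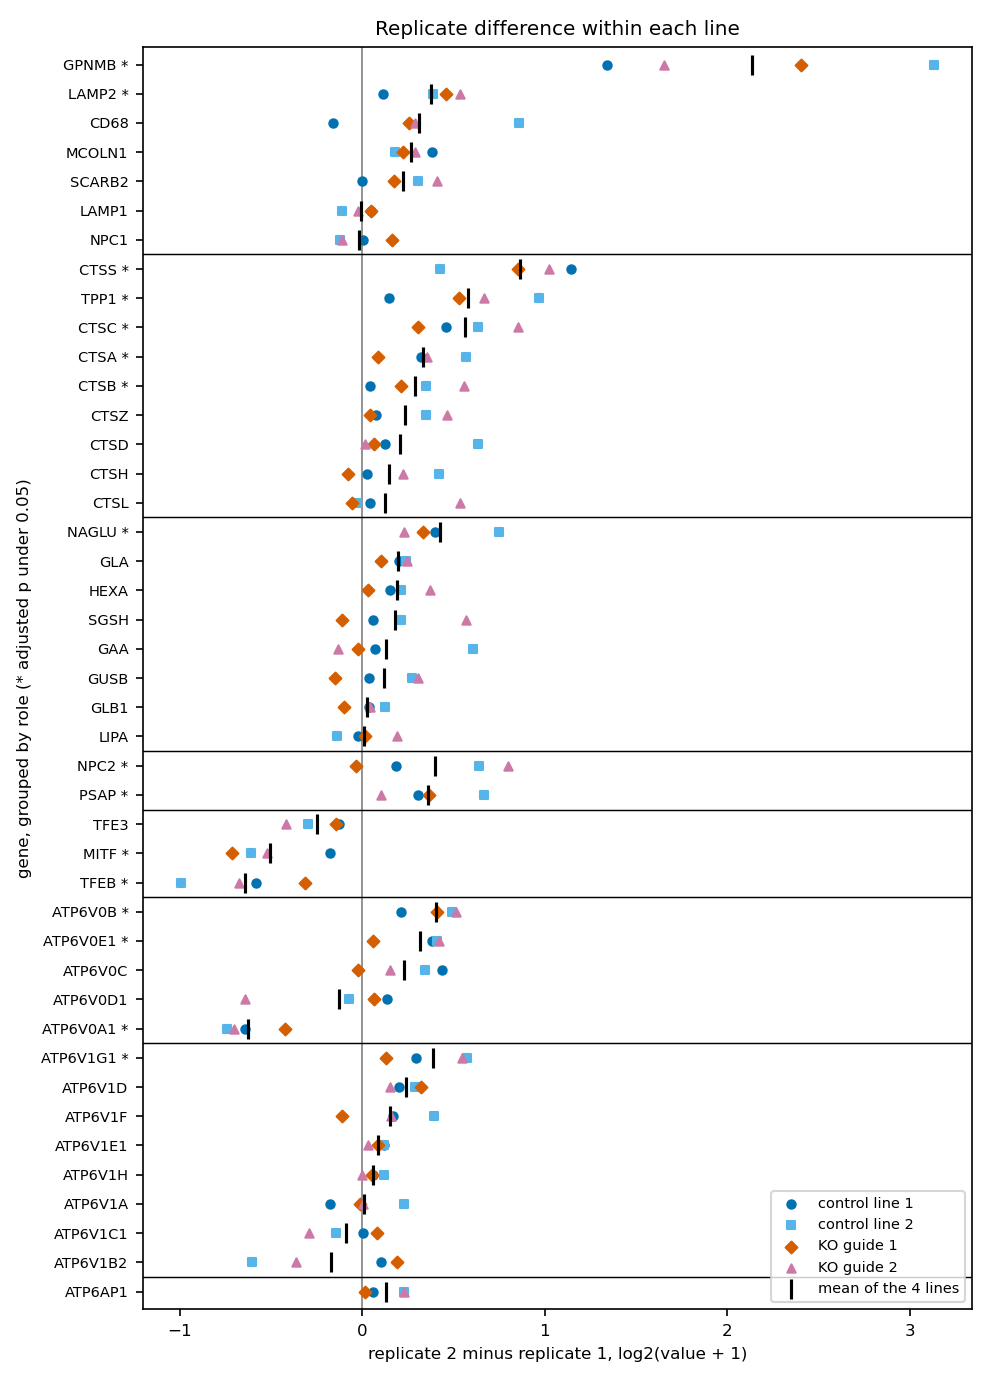
The log2 difference of replicate 2 minus replicate 1 is shown for each tested member in each of the 4 lines (symbols) with their mean (black bar), and asterisks mark members called by limma. GPNMB lay between 1.34 and 3.13, and TFEB, TFE3, MITF and ATP6V0A1 were below 0 in all 4 lines.

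Among the membrane proteins, GPNMB and LAMP2 were called. GPNMB, with the values given above, had a mean of 74.3 ± 53.5 in replicate 1 and 316 ± 217 in replicate 2 (SD, n = 4 each), a log2 difference of 2.13 (SE 0.23, limma adjusted p 0.000371), with 18 reads in its lowest library. The difference in single lines was 1.34 to 3.13, so replicate 2 was higher by more than 2-fold in all 4 lines, although the replicate groups overlapped. LAMP2 differed by 0.37 (limma adjusted p 0.012) and was higher in 4 of 4 lines. MCOLN1 (0.27, adjusted p 0.0615) was also higher in all 4 lines and did not pass the test. CD68 (0.31) and SCARB2 (0.22) were higher in 3 lines, and NPC1 (-0.02) and LAMP1 (-0.01) had differences smaller than their SEs.

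Of the 9 proteases, 5 were called, all higher in replicate 2, and the other 4 had positive differences that did not pass. CTSS had the largest (0.86, limma adjusted p 0.00128), from 188 to 307 normalized counts in replicate 1 to 254 to 651 in replicate 2. CTSC, which activates the proteases of immune granules, differed by 0.56 (limma adjusted p 0.00309), CTSA, the protective protein of beta-galactosidase and sialidase, by 0.33, and CTSB by 0.29. TPP1 (Entrez gene 1200, chr11:6612768-6619422), a tripeptidyl peptidase, was at 867 and 961 in control line 1, 658 and 1289 in control line 2, 770.3 and 1112 in the line labelled KO guide 1, and 703 and 1118 in the line labelled KO guide 2. The 4 replicate 2 values were above all 4 replicate 1 values, with control line 1 the closest pair. Its mean was 749.7 ± 90.8 in replicate 1 and 1120.03 ± 134 in replicate 2 (SD, n = 4 each), and the difference was 0.58 on the log2 scale (SE 0.11, limma adjusted p 0.00677).

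Of the 8 tested glycosidases, sulfatase and lipase, NAGLU, which removes terminal N-acetylglucosamine from heparan sulfate, was the only one called (0.43, limma adjusted p 0.0127). The others (GAA, GLA, GLB1, GUSB, HEXA, SGSH and LIPA) had differences of 0.01 to 0.20, and those of GLB1 and LIPA turned negative with equal totals. Both soluble helpers were called. NPC2, which hands cholesterol to NPC1, differed by 0.40 (limma adjusted p 0.0411), but was lower in replicate 2 of KO guide 1 (a difference of -0.04 against up to 0.80 in the other lines). PSAP differed by 0.36 (limma adjusted p 0.0244) and was higher in 4 of 4 lines.

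The 3 transcription factors had the opposite sign. TFEB (Entrez gene 7942, chr6:41683978-41736223) was at 136 and 90.5 normalized counts in control line 1, 188 and 94.0 in control line 2, 182 and 146 in the line labelled KO guide 1, and 135 and 84.5 in the line labelled KO guide 2. Replicate 2 was the lower of each pair, and the replicate groups overlapped only through replicate 2 of KO guide 1. The means were 161 ± 28.8 and 104 ± 28.6 (SD, n = 4 each), and the difference was -0.64 on the log2 scale (SE 0.14, limma adjusted p 0.0106).

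MITF (Entrez gene 4286, chr3:69739464-69968332) was at 741 and 656 in control line 1, 667 and 436 in control line 2, 550.4 and 335 in the line labelled KO guide 1, and 617 and 429.7 in the line labelled KO guide 2. It was lower in replicate 2 of every line, with the smallest difference in control line 1 (-0.18), and the log2 difference over lines was -0.51 (SE 0.10, limma adjusted p 0.00737). TFE3 (Entrez gene 7030, chrX:49028726-49043357) was at 959 and 878 in control line 1, 1005 and 818 in control line 2, 978 and 885 in the line labelled KO guide 1, and 1249 and 933 in the line labelled KO guide 2. Its replicate 2 values were all below its replicate 1 values, by -0.25 on the log2 scale, which did not pass the test (SE 0.08, limma adjusted p 0.0583) and did with equal totals (adjusted p 0.0279). Between KO and control none of the 3 was called, at log2 differences of 0.12 for TFEB, 0.14 for TFE3 and -0.38 for MITF (limma adjusted p 0.675 to 0.949). These moved with single libraries. TFE3 was at 0.03 without replicate 1 of KO guide 2 and 0.07 without replicate 2 of control line 2, and at most 0.20. MITF lay between -0.54 (without replicate 2 of control line 2) and -0.22 (without replicate 2 of KO guide 1).

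**Figure D4:**
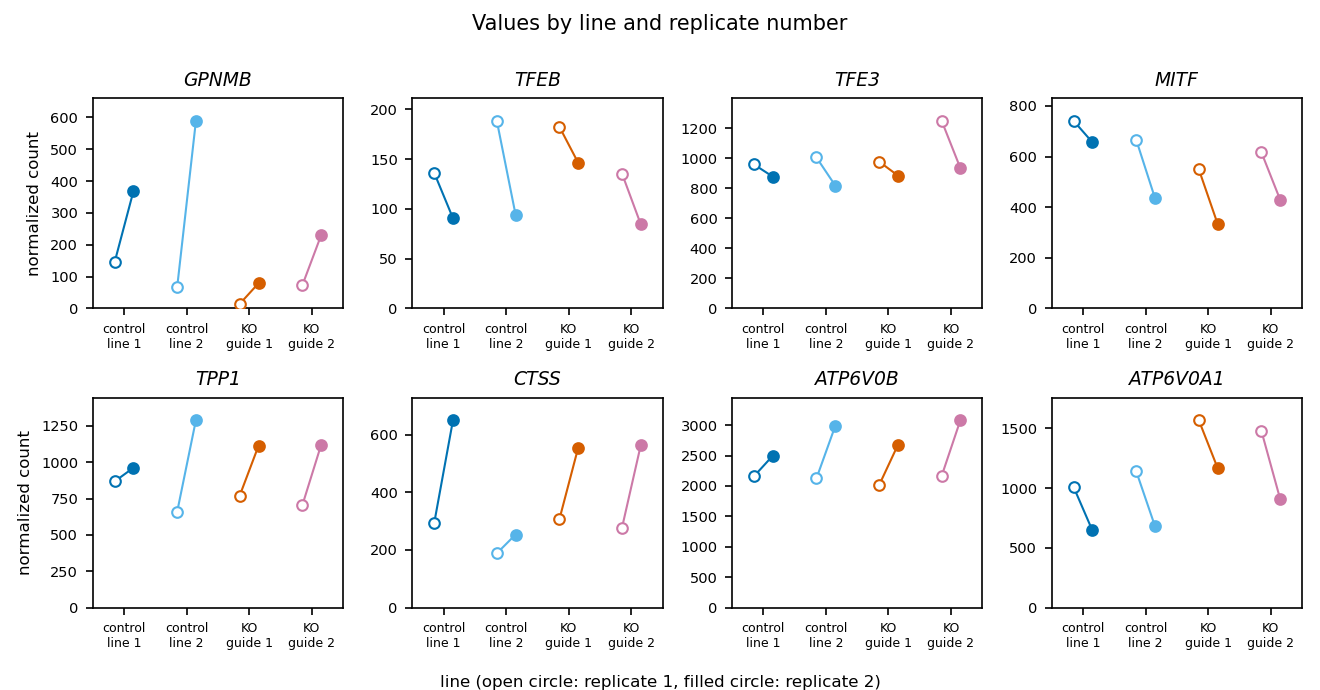
Normalized counts of 8 members in the 4 lines, with open circles for replicate 1, filled circles for replicate 2, a line joining each pair and axes from 0. GPNMB, TPP1, CTSS and ATP6V0B were higher in replicate 2 of every line, and TFEB, TFE3, MITF and ATP6V0A1 were lower.

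Of the 14 V-ATPase genes, 4 were called, with both signs within the V0 sector. ATP6V0B (Entrez gene 533, chr1:43974960-43978295), a proton-carrying ring subunit, was at 2159 and 2496 in control line 1, 2127 and 2988 in control line 2, 2012 and 2673 in the line labelled KO guide 1, and 2165 and 3084 in the line labelled KO guide 2. The replicate 1 values lay within 2012 to 2165 in all 4 lines, and every replicate 2 value was above them. Its log2 difference was 0.40 (SE 0.08, limma adjusted p 0.00641). ATP6V0E1, a small subunit of the V0 sector, was also higher (0.32, limma adjusted p 0.0235).

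ATP6V0A1, an isoform of the large V0 subunit that directs the pump to its compartment, was lower in replicate 2, at a log2 difference of -0.63 (limma adjusted p 0.000959). It fell from 1010 to 647 in control line 1, from 1143 to 683 in control line 2, from 1570 to 1171 in the line labelled KO guide 1 and from 1482 to 911 in the line labelled KO guide 2. Of the 8 V1 subunits, the stator subunit ATP6V1G1 alone was called (0.39, limma adjusted p 0.0129), and the others had differences between -0.17 and 0.24. ATP6V0C, ATP6V0D1 and the accessory subunit ATP6AP1 had differences of 0.23, -0.13 and 0.13 and were not called. Of the 8 tested members whose promoter window held CACGTG, 3 were called as higher in replicate 2 (CTSA, ATP6V0B and ATP6V1G1), while LAMP1, GAA, MCOLN1, CTSD and ATP6V0D1 were not called. That share (37.5%) was close to the 37.2% of all tested members.

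Depth and mitochondrial share, given above, also differed between the replicates, and their part in the replicate differences was not tested. In the line labelled KO guide 1 the mitochondrial share was 6.43% in replicate 1 and 6.23% in replicate 2, and there the median member difference was 0.06, with 29 of 43 members higher. In the other lines replicate 2 had the higher share, at 6.35% in control line 1, 9.05% in control line 2 and 13.8% in KO guide 2. Their median member differences were 0.10, 0.29 and 0.23, with 35, 32 and 32 members higher, where 49.9% to 50.9% of all genes were higher in each of the 4 lines.

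The layout of 4 lines by 2 replicate numbers allowed the variation of each gene to be divided. The median member had 61.7% of its variation between lines, 18.5% between replicate numbers and 8.35% in the remainder, where the medians over all genes were 65.1%, 13.0% and 12.8%. The line share was largest for GLB1 (99.2%) and LAMP1 (97.3%), and the replicate share for ATP6V0B (83.0%) and TPP1 (78.9%). In 8 members (18.6%) the replicate number took over 50% of the variation, as in 11.5% of all genes. The replicate share exceeded the line share in 12 members, a count that was not taken over all genes. With 4 lines but only 2 replicate numbers, noise alone gives lines the larger share. The line and replicate shares are therefore to be read beside those over all genes, not against each other. In the fits without a replicate block, 9 members were called in a comparison of lines, 16 in the replicate comparison and none in both. Without the block, a replicate difference counts as error between lines, so the fit itself works against calls in both. For GPNMB the SE of KO guide 1 minus the control lines was 0.94 without the block and 0.29 with it. With the block, 32 members were called in a comparison of lines or over any difference among the 4 lines, NAGLU in the latter alone. Of these 32, 11 were among the 16. Matching counts over all genes were not taken, so neither overlap is read as particular to the members. The replicate difference was not found to depend on the arm in any member (limma adjusted p 1 for KO lines minus control lines, 0.00712% of all genes called). The largest such difference was that of GAA (-0.41), which was at 1675 and 1757 in control line 1, 1625 and 2473 in control line 2, 1453 and 1430 in the line labelled KO guide 1, and 1169 and 1067 in the line labelled KO guide 2. Its replicates were far apart in control line 2 and close in the other 3 lines.

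**Figure D5:**
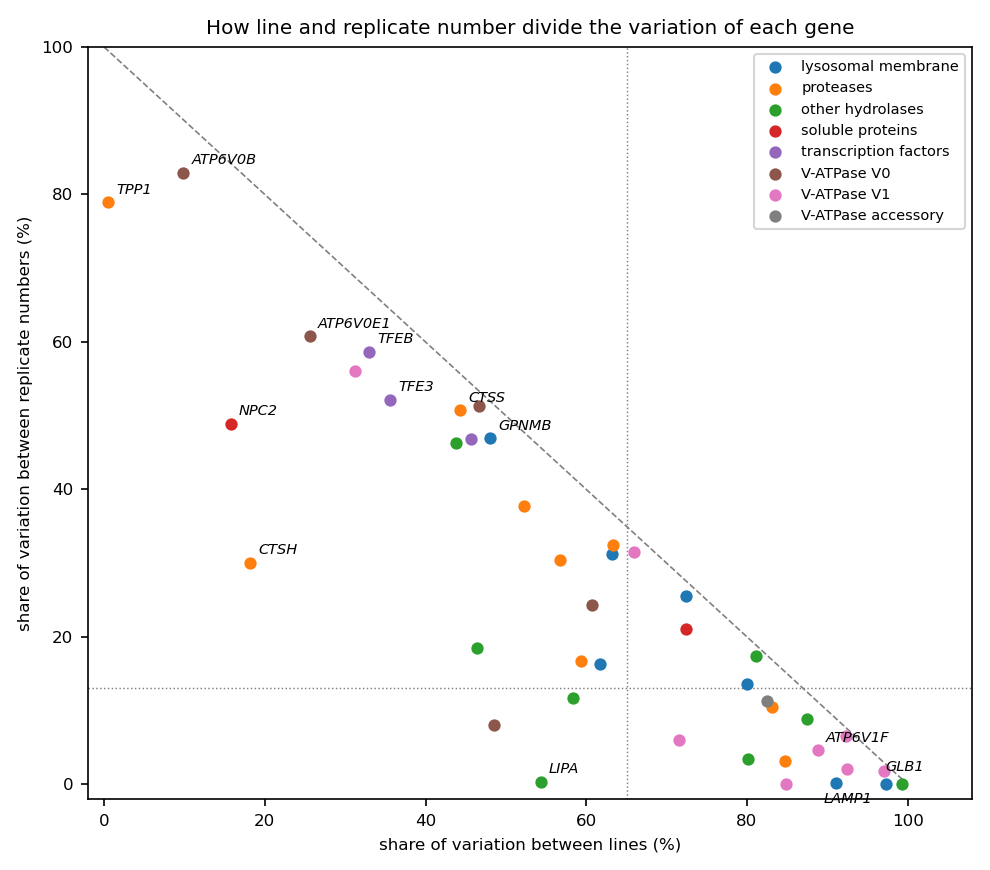
Each point is a tested member, with the percentage of its variation between lines on the x axis and between replicate numbers on the y axis; colours give the role, dotted lines the medians over all genes (65.1% and 13.0%), and the dashed line the limit where nothing remains. ATP6V0B and TPP1 lay at the replicate end, and GLB1 and LAMP1 at the line end.

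Other genes of the pathway were described from lists. In the comparison of KO with control no gene of the 6 lists was called. In the replicate comparison, where 17.6% of all genes were called, the called share was 24.2% of other enzymes, 16.7% of other membrane proteins, 13.3% of other V-ATPase genes, 16.7% of sorting genes, 18.8% of nutrient sensing genes and 33.3% of autophagy genes. All but the first and last of these were close to or below the share over all genes. Of the lysosomal enzymes and activators, 8 of 33 were called, 7 higher, with SCPEP1 (0.43), DPP7 (0.41) and ARSA (0.39, arylsulfatase A) the largest, and IDS, iduronate sulfatase, lower (-0.27). Of 24 other lysosomal membrane proteins, SLC15A4 (0.55), the tetraspanin CD63 (0.53) and LAPTM4A (0.39) were higher and SIDT2 (-0.85) was lower. Among 15 other V-ATPase subunits and assembly factors, TCIRG1, another isoform of the large V0 subunit, was higher (0.39) and DMXL2 lower (-0.33).

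Of 18 genes for sorting to the lysosome, GNPTG was higher (0.47) and VPS39 (-0.52) and VPS41 (-0.49), 2 subunits of the HOPS tethering complex, were lower. Of 16 genes for nutrient sensing, FLCN, a regulator of TFEB and TFE3 at the lysosome, was higher (0.40) and RPTOR, the defining subunit of mTORC1, lower (-0.28). TFEC, a relative of TFEB, was also called as higher, at 0 to 4.70 normalized counts in replicate 1 and 12.4 to 15.6 in replicate 2. It passed the filter on low values through its replicate 2 libraries alone, so its call is no support for a rise. The 18.8% of nutrient sensing genes given above includes it. Of 15 autophagy genes, WIPI1 (0.61) and MAP1LC3B (0.28) were higher, and ULK1 (-0.69), the kinase that starts autophagy, ATG16L1 (-0.58) and ATG9A (-0.42) were lower. The limma adjusted p-values of the genes named from these lists were 0.000625 to 0.0482, and their list medians were 0.12, 0.11, 0.17, -0.14, 0.11 and -0.11 in the order given.

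Markers of other cells that hold abundant lysosomes were examined, since the members are not specific to one cell type. Of 12 macrophage markers, 9 had at most 3 reads in every library, PTPRC, CD163 and LYZ among them, and 1 (ITGAM) was tested. Their summed normalized counts were 35.9 to 95.1 in replicate 1 and 44.2 to 80.9 in replicate 2, and 35.9 to 47.8 in control against 74.7 to 95.1 in KO. Of 8 melanocyte markers, TYR and TRPM1 were at 0 throughout, whereas PMEL and TYRP1 passed the filter and were tested. The sum of the 8 was 44.7 to 67.3 in replicate 1 and 32.2 to 67.4 in replicate 2. Of 5 osteoclast markers, DCSTAMP and OCSTAMP were at 0 and CTSK was tested, with sums of 11.4 to 24.95 and 6.24 to 26.1. The 6 kidney intercalated cell markers, which include V-ATPase isoforms, summed to 24.8 to 52.4 and 44.6 to 83.8. FOXI1 was at 0 among them, and ATP6V0A4, ATP6V0D2 and SLC26A4 were tested. The 5 fibroblast markers, with DCN and LUM at most at 3 reads, summed to 182 to 1046 and 198 to 1431, and to 558 to 1431 in control against 182 to 521 in KO; COL1A1, at 177 to 1408, made up most of it. The part of these markers in the differences above was not tested.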

How the data were processed

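PolyA RNA-seq of 8 libraries was deposited as 1 table of normalized signal per Entrez gene, 1 column per library, with no replicates pooled per the file headers. The submitters' processing notes name fastp 0.23.2, HISAT2 2.2.1, featureCounts 2.0.1 and DESeq2 2.11.40.8 and the builds hg38 and GRCh38; annotation and strand use are not given in the sources used here. Of the deposited values above 0, 100% were whole reads divided by 1 factor per library (tolerance 1e-06, largest deviation 8.45e-10), so whole reads were recovered for the count tests. Symbols and coordinates came from RefSeq (GRCh38.p14), found for 27745 of 28395 identifiers, and exon lengths from GENCODE 29.

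Tests used limma 3.58.1 (R 4.3.3) on log2(value + 1), so differences of low genes are understated, on 14040 genes that reached 10 in 2 or more libraries. Benjamini-Hochberg adjustment ran over all of these, and an adjusted p under 0.05 was a call. KO and control were compared over 4 libraries each with the correlation within lines (0.33) from duplicateCorrelation, lines in a model with a mean per line (4 residual degrees of freedom), and replicates with line as a block (3 residual degrees of freedom). Count tests on the recovered reads with edgeR 4.0.16 and DESeq2 1.42.0 were alternatives; edgeR called 186 genes between KO and control. The limma fits without a replicate block and the edgeR fits were tried on simulated data. This covered 3 comparisons: KO minus control, KO guide 2 minus control lines, and replicate 2 minus replicate 1. DESeq2, the replicate block and the other comparisons were not tried in this way. Beyond the change put in, the simulated libraries had no line effect and no replicate difference shared across lines. The data had both, so these trials do not show how the tests behave under such effects.

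The replicate numbers came from the titles. Replicate differences correlated between lines at 0.285 to 0.501 over all genes (Pearson's r, 6 pairs of lines), each above the limit of 0.1 for treating them as paired, so results that the replicate block changed are given beside the main ones. The 2 replicates of each line differed by more than sampling noise (r of 0.978 to 0.987; chi-square of 18.8 to 72.3 per degree of freedom).

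The members and lists were chosen with earlier results of these data known. Values in every library are given for GPNMB, TFEB, TFE3 and MITF, for the called member with the largest rise and the largest fall in each comparison, and for the 2 members with the largest share of variation by line and by replicate; other called members are named with their difference. The heatmap and the lists of other genes are descriptions. Alternatives covered pseudocounts (0.1 and 10), the filter, TMM scaling, equal totals, both count tests, the replicate block, the treatment of lines and each library left out. A floor of 3 reads was used for detection, which covers counting error only.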

Additional observations from a re-analysis of the deposited data

Results flagged for a closer look

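Among 88 groups of 4 libraries (the 43 tested members and ANXA4 in each arm), 8 held 1 library apart from the others by Dixon's criterion. About 1 group in 20 meets this criterion by chance when its 4 values are independent and from 1 normal distribution. The groups here held 2 lines of 2 libraries each, so that rate is no measure of what chance gives in them. Control line 2 held 5 of them. SCARB2 was at 4116 normalized counts in its replicate 1, where the other control libraries had 5082 to 5086. CTSB was at 5685 there, against 7039 to 7251, and GUSB at 1319, against 1566 to 1603. In replicate 2 of the same line, CTSH was at 1152, against 860.4 to 908, and GAA at 2473, against 1625 to 1757. The other 3 were in the line labelled KO guide 2. SGSH was at 358.5 in its replicate 2, against 226 to 244 in the other KO libraries, and ATP6V0E1 at 5573, against 3951 to 4165. In replicate 1 of that line, ATP6V0D1, a V0 subunit, was at 3051, against 1956 to 2110. ATP6V1F differed between the 2 KO lines when that difference was tested (0.81 on the log2 scale, limma adjusted p 0.024), and was higher in both libraries of KO guide 2 than in both of KO guide 1.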

How the results depend on the processing

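Pseudocounts of 0.1 and 10, TMM scaling, the absence of a filter and the edgeR test left every count of called members within 1.5 times its value. Equal totals did so except between the KO lines, where 2 members were called instead of 1. DESeq2 called 4 members between KO and control, 2 between the control lines, 7 in KO guide 1, 8 in KO guide 2, 4 between the KO lines and 13 among the 4 lines, beside 6.05%, 4.67%, 10.3%, 13.1%, 9.93% and 21.6% of all genes. With the replicate block these counts were 0, 6, 15, 15, 16 and 30, beside 0.264%, 12.5%, 24.4%, 27.4%, 24.5% and 43% of all genes. A separate mean per line gave 7 members between KO and control and line means gave 0, and the replicate comparison without the line gave 0. With each library left out in turn, the counts were 0 for KO against control, 0 to 1 between the control lines, 0 to 6 in KO guide 1, 1 to 6 in KO guide 2, 0 to 2 between the KO lines, 1 to 8 among the 4 lines and 4 to 16 between replicates. The TFEB difference between KO and control, 0.12, lay between -0.0556 and 0.348 and was negative without replicate 2 of either control line or replicate 1 of KO guide 1. With 2 libraries per line, precision is limited by the number of libraries, and for GPNMB and TFEB also by depth. Where 1 library of a line was left out, the remaining one was assumed to vary like the other lines. The cause of these changes was not tested.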
